A study of Homo sapiens with 15 samples.

Results

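FAM111A and FAM111B are the 2 members of the human FAM111 gene family, and both were matched by symbol among the 60670 genes of the count table. They were followed across 15 RNA sequencing libraries of HT-1080, a human fibrosarcoma cell line. Cycling HT-1080 cells received the vehicle DMSO and carry a 6 h time label. Senescent HT-1080 cells had expressed a dominant negative mutant of TRF2 (gene TERF2), a telomere-capping protein, for 6 days. They then received DMSO for 6 h, 1 uM of the kinase inhibitor GNF-7 for 6 h, DMSO for 24 h, or 1 uM GNF-7 for 24 h. Each of the 5 groups has 3 libraries whose titles call them biological replicates of the 1 line. There was no cycling group with GNF-7 and none at 24 h, and the labels used here do not give the promoter that drove the TRF2 mutant. The pair was chosen with results of these data in view: FAM111B had been among the genes that fell most in senescence, after 6 h of GNF-7 and after 24 h of GNF-7. Its values in those comparisons, and in the ones built from the same treated libraries, are therefore given as a description without a p-value. Whether the values of FAM111A also weighed in the choice is not recorded. The p-values of FAM111A are given with that limit.

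FAM111A and FAM111B each end in a domain of the trypsin-like serine protease fold. FAM111A is a nuclear protein that binds PCNA, the sliding clamp of DNA polymerases, through a short PCNA-binding motif, and it helps replication forks pass proteins that are stuck to DNA. It is also known as a host restriction factor against certain DNA virus mutants, and dominant variants of it cause Kenny-Caffey syndrome. FAM111B is its less studied paralog, mutated in a hereditary fibrosing poikiloderma, and its transcript is known to be tied to the cell cycle. Proliferating cultures such as HT-1080 copy their DNA constantly, whereas senescent cells have left the cycle. The share of cells still cycling in the senescent cultures used here was not measured.

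The genes are neighbours on the plus strand of chromosome 11 (GRCh38, GENCODE release 29). FAM111B (ENSG00000189057) spans 59107185 to 59127410 and FAM111A (ENSG00000166801) spans 59142748 to 59155039, with 15337 bases between them. FAM111B overlaps no other annotated gene. FAM111A starts head to head with the long non-coding RNA FAM111A-DT on the minus strand. Their exons share 123 bases, out of 7221 exon bases in FAM111A (1.70%) and 2645 in FAM111A-DT. The strand setting of the counting is not given in the sources used here, so reads from that short overlap cannot be told apart. The longest run of identical bases between any transcript of FAM111A and any of FAM111B was 13 bases, so the paralogs share no long stretch of sequence.

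RefSeq promoter windows (GRCh38.p14, 250 bases before each transcript start) were matched for 1 of the 2 members, FAM111A, which had 2 starts that lie 2006 bases apart. FAM111B was not matched. The windows were searched on both strands for letters bound by regulators of cell-cycle genes, because FAM111A and many of those genes were both lower in senescence. The letters were TTCCCGCC, TTTGGCGC and TTTCGCGC for E2F factors, TTTGAA and TTCGAA for the CHR element read by the DREAM and MuvB complexes, and CCAAT for NF-Y. None of them was in the window of the upstream start. The window of the downstream start, chr11:59144612-59144861 on the plus strand, held 3 matched stretches, each printed 5′ to 3′ with the matched letters in capitals. The first holds the E2F letters, 64 bases before the start. The second holds TTCAAA, which is TTTGAA on the other strand, 92 bases before the start. The last, 133 bases before the start, holds CCAAT and overlapping with it ATTGG, which is CCAAT on the other strand.
FAM111A E2F stretch, chr11:59144787-59144816: acctgctccgtTTCCCGCCcagctggagct
FAM111A CHR stretch, chr11:59144758-59144787: aaaggcgggcgaTTCAAAcccctagcccca
FAM111A CCAAT stretch, chr11:59144717-59144746: gaaagaaagtaaCCAATTGGttcgcagaca
Of 35116 windows of the same length in the table, 2.72% held TTCCCGCC, 13.3% held TTTGAA and 32.01% held CCAAT, on either strand. The letters not found here were rarer, with TTTGGCGC in 0.550%, TTTCGCGC in 0.439% and TTCGAA in 1.19% of windows. At least 1 of the E2F letters, 1 of the CHR letters and CCAAT were together in 44 windows (0.125%). Whether that share differs from what the single shares would give together was not tested, and 2 windows of FAM111A were searched. Annotated exons of other FAM111A transcripts cover this window, and a match of letters describes the sequence and not a bound site.

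Library totals ranged from 25991007 to 32323393 counts. TERF2, the check of the labels, had a mean level of 58.2 ± 3.65 CPM (SD, n = 3) when cycling. In senescent DMSO cells it was at 287 ± 8.17 CPM at 6 h and 220 ± 7.26 CPM at 24 h. With GNF-7 it was at 222 ± 8.60 CPM at 6 h and 132 ± 5.38 CPM at 24 h. TERF2 thus differed between the groups of every comparison below, and its part in the results was not tested. Counts do not separate mutant from endogenous TERF2. CPM is the count of a gene scaled to a common library total, here with the TMM factor of each library as a correction for composition. All 6 mesenchymal markers listed for this line (VIM, CDH2, LGALS1, S100A6, AXL and CD44) were above 1 CPM in every library. The summed level of 4 epithelial markers was at most 2.50 CPM, that of 4 leukocyte markers at most 0.624 CPM and that of 4 endothelial markers at most 2.37 CPM. Mitochondrial genes took a share of 3.75 to 5.01% of all counts in cycling cells, 11.2 to 12.4% in senescent DMSO cells at 6 h and 13.2 to 15.3% after 6 h of GNF-7. At 24 h it was 15.1 to 18.7% in DMSO and 22.6 to 24.1% in GNF-7. It moved with the groups in every comparison below; its part in the results was not tested, and leaving these genes out of the scaling changed no call of FAM111A. MKI67, a marker of proliferating cells, moved with them too, with means of 509 CPM in cycling cells, 149 and 114 CPM in DMSO and GNF-7 at 6 h, and 125 and 39.1 CPM at 24 h.

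FAM111B had one high group and a stepwise series of low ones. In cycling cells its libraries held 1765, 2038 and 2074 counts, or 71.0, 70.2 and 67.7 CPM. In senescent DMSO cells at 6 h they were at 4.80, 3.54 and 4.72 CPM. After 6 h of GNF-7 they were at 1.36, 1.71 and 1.02 CPM. Every cycling library was above every senescent one, and every GNF-7 library at 6 h was below every DMSO library at 6 h. In DMSO at 24 h FAM111B was at 5.01, 5.11 and 5.19 CPM, slightly above the DMSO libraries at 6 h. After 24 h of GNF-7 it was at 0.468, 0.455 and 0.398 CPM, from 14, 14 and 12 counts. These were the lowest libraries of the series for this gene. With so few reads counting error is large: an exact 95% Poisson interval for 12 counts runs from 6.20 to 21.0 and covers counting error only. The spread of the 3 libraries at that point, 0.440 ± 0.0368 CPM, is smaller than counting error alone would give.

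FAM111A changed over a much smaller range. Cycling libraries held 2675, 3156 and 3458 counts, or 108, 109 and 113 CPM. Senescent DMSO libraries at 6 h were at 41.6, 42.4 and 43.5 CPM, all below the cycling ones. The GNF-7 libraries at 6 h, at 40.5, 49.4 and 45.6 CPM, lay on both sides of them. In DMSO at 24 h FAM111A was at 37.1, 37.5 and 36.2 CPM, below all other libraries of the series. After 24 h of GNF-7 it was at 41.3, 43.8 and 43.4 CPM, above every DMSO library at 24 h and overlapping with the DMSO libraries at 6 h. Across the 15 libraries the log2 CPM of FAM111B spanned 7.25 and that of FAM111A 1.64. In bulk RNA a lower level can come from fewer expressing cells or from less RNA per cell, and these cannot be told apart.

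**Figure D1:**
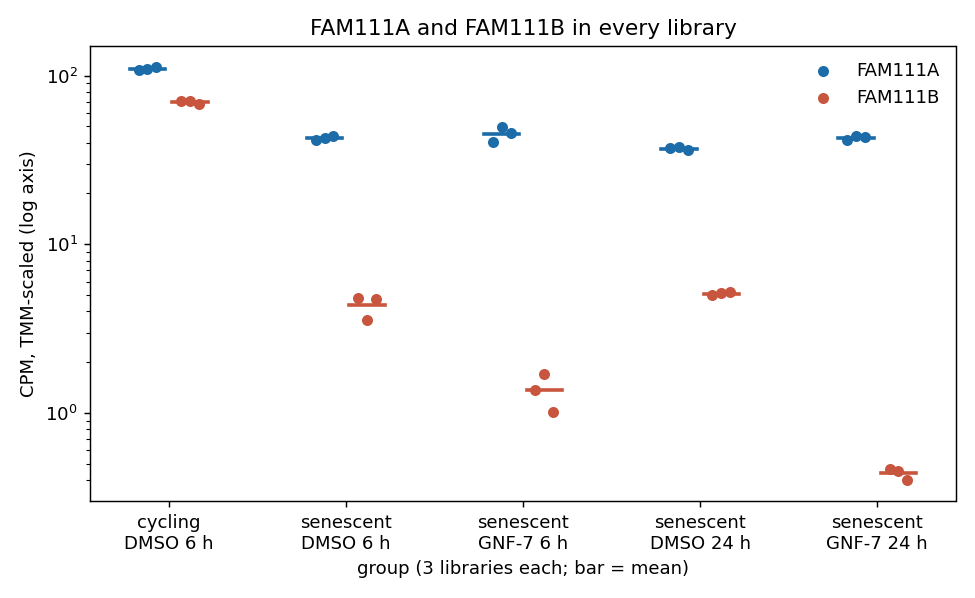
CPM of FAM111A (blue) and FAM111B (red) in each of the 15 libraries, on a log axis, with 3 points per group and a bar at each mean. Both genes are highest in cycling cells; FAM111B drops again in the GNF-7 groups, to 0.440 CPM at 24 h, while FAM111A stays between 36.2 and 49.4 CPM in all senescent libraries.

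Ordered by mean level, FAM111A went from 110 ± 2.80 CPM (SD, n = 3) in cycling cells to 45.2 ± 4.47 CPM after 6 h of GNF-7. It was at 42.9 ± 1.33 CPM after 24 h of GNF-7, 42.5 ± 0.958 CPM in DMSO at 6 h and 36.9 ± 0.650 CPM in DMSO at 24 h. The 3 middle groups overlapped and did not differ beyond their spread. For FAM111B the order was cycling cells at 69.6 ± 1.71 CPM, DMSO at 24 h at 5.10 ± 0.0889 CPM and DMSO at 6 h at 4.35 ± 0.707 CPM. GNF-7 at 6 h followed at 1.36 ± 0.348 CPM and GNF-7 at 24 h was last at 0.440 CPM. As a share of its cycling mean FAM111B retained 6.25% in senescent DMSO cells at 6 h and 0.632% after 24 h of GNF-7, whereas FAM111A retained 38.8% and 39.1%. Per length, over the union of annotated exons, cycling cells held 18.0 ± 0.442 CPM per kilobase of FAM111B and 15.2 ± 0.388 of FAM111A. The order was the same with the longest transcript of each gene, at 19.96 and 17.7 CPM per kilobase. Which annotated transcripts were expressed was not measured, and use of shorter FAM111A transcripts could change this order. In senescent DMSO cells at 6 h it was turned round, with 1.13 ± 0.183 CPM per kilobase of exons for FAM111B and 5.89 ± 0.133 for FAM111A.

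The ratio of the genes within a library does not depend on how the library is scaled. FAM111B counts were 66.0, 64.6 and 60.0% of FAM111A counts in the cycling libraries. They were 11.5, 8.33 and 10.8% in senescent DMSO cells at 6 h and 13.5, 13.6 and 14.3% at 24 h. With GNF-7 they were 3.36, 3.47 and 2.23% at 6 h and 1.13, 1.04 and 0.918% at 24 h. No GNF-7 library overlapped with a DMSO library in this ratio, as the choice of FAM111B on the GNF-7 comparisons makes likely. On the log2 scale, with a prior count of 2, the mean difference between FAM111B and FAM111A was -0.66 ± 0.072 (SD, n = 3) in cycling cells and -6.40 ± 0.13 after 24 h of GNF-7.

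**Figure D2:**
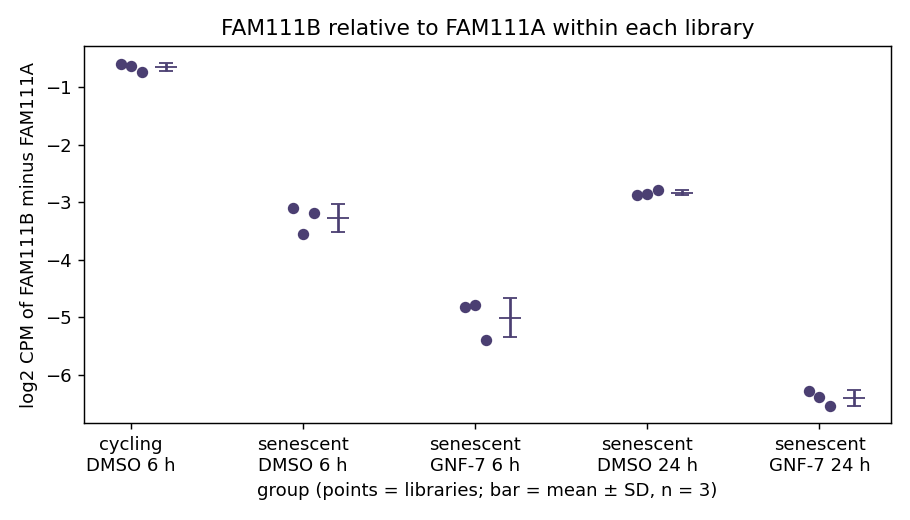
Difference of log2 CPM, FAM111B minus FAM111A, in each library (points) with the mean and SD of the 3 libraries of a group (bars). The value falls from -0.66 in cycling cells to -3.28 in senescent DMSO cells at 6 h, and reaches -5.01 and -6.40 after 6 h and 24 h of GNF-7. FAM111B was chosen on its fall in these comparisons.

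The first comparison set senescent against cycling cells in DMSO at 6 h. FAM111A fell by 1.37 on the log2 scale (SE 0.053), a 2.58-fold lower level, with an edgeR adjusted p of 1.30e-32. Of 18563 genes tested, 70.0% were called at an adjusted p under 0.05, 34.4% lower and 35.6% higher, so a call in itself is common here. FAM111B had a log2 fold change of -4.00 (SE 0.097), a 16.0-fold difference. Among 118 genes in 5 lists of the cell-cycle and replication machinery none had a lower log2 fold change than FAM111B, as its choice makes likely, and 71 had a lower one than FAM111A, as did 4.03% of all genes tested.

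The machinery around these proteases fell broadly in senescence. All 23 genes of origin licensing and the replicative helicase were called lower (median log2 fold change -2.20, against 0.06 over all genes), led by GINS2 (-3.10), MCM6 (-3.04) and CDC6 (-3.03). GINS2 is part of the active helicase, MCM6 one of its ring subunits and CDC6 a loader of that ring. Of 27 genes that load PCNA or bind it, 25 were called lower and 2 higher (median -1.84). PCLAF, a PCNA-associated factor, was at -2.95, the nuclease EXO1 at -2.68 and DTL, which targets PCNA-bound proteins for degradation, at -2.45. PCNA itself was at 305 ± 8.48 CPM in cycling and 136 ± 4.40 CPM in senescent cells. It fell by 1.17 on the log2 scale (edgeR adjusted p 2.59e-35, SE 0.040), where FAM111A fell by 1.37. The higher ones were POLD4 (1.20) and the translesion polymerase gene POLH (0.70), named after their values were seen.

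Genes of DNA-protein crosslink repair, the process in which FAM111A takes part, had a smaller median of -0.94. Of 23 members 21 were called lower and 0 higher, with FANCD2 (-2.38), TOP2A (-2.35) and FANCI (-2.09) at the low end. SPRTN, the best-known protease for such crosslinks, went from 14.3 ± 2.26 to 11.9 ± 0.0232 CPM. It fell by 0.27 on the log2 scale (edgeR adjusted p 0.0171, SE 0.103), a call lost under total counts (-0.14), under a filter on a mean level of 5 CPM (-0.12), and without cycling replicate 1 (-0.19) or 3 (-0.23). Among 23 G1/S regulators 19 were called lower and 3 higher (median -1.05). The cyclin gene CCNE2 was at -3.17, E2F8 at -3.15 and E2F1 at -2.79, and CDKN1A, which encodes the CDK inhibitor p21, rose by 1.43. All 22 G2/M genes were called lower (median -1.66), among them MYBL2 (-3.37), UBE2C (-2.92), CDK1 (-2.69) and the proliferation marker MKI67 (-1.77).

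The second comparison, on which FAM111B was chosen, set 6 h of 1 uM GNF-7 against DMSO in senescent cells. FAM111A was not called, at 0.09 on the log2 scale (edgeR adjusted p 0.223, SE 0.055). In this comparison 39.3% of all genes were called, 17.9% higher and 21.4% lower. The FAM111A value passed the threshold under the 5 CPM filter (0.14, edgeR adjusted p 0.0330) and without GNF-7 6 h replicate 1, its lowest library (0.16, edgeR adjusted p 0.0242). FAM111B had a log2 fold change of -1.67 (SE 0.154), a 3.19-fold lower level than in DMSO.

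The lists moved far less than FAM111B at 6 h, as its choice on this comparison makes likely. Of the 118 genes 62 were called lower and 13 higher, with a median of -0.19 against 0.01 over all genes, and the lowest single value was -0.99. Origin licensing genes had 12 lower and 2 higher (median -0.19), and PCNA loading and partner genes 14 lower and 4 higher (-0.15). Crosslink repair genes had 8 lower and 3 higher (-0.02), G1/S regulators 13 lower and 4 higher (-0.20), and G2/M genes 15 lower and 0 higher (-0.26). PCNA fell by 0.15, CCNE2 by 0.85, E2F1 by 0.42 and FEN1, which trims Okazaki fragments, by 0.93. MCM6, in contrast, rose by 0.49. RFC1, the large subunit of the clamp loader, rose by 0.42 and E2F7, a repressive E2F factor, by 0.72; these genes were named after their values were seen. SPRTN was at -0.22 and was not called (edgeR adjusted p 0.0907), except without GNF-7 6 h replicate 1 (-0.31).

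The third comparison made the same contrast at 24 h. FAM111A was 1.16-fold higher in GNF-7, 0.21 on the log2 scale (edgeR adjusted p 8.05e-04, SE 0.056). The groups did not overlap, and how many of all genes also had no overlap was not counted. At this time 58.9% of all genes were called, 29.3% higher and 29.7% lower. FAM111B had a log2 fold change of -3.52 (SE 0.192), which is an 11.5-fold lower level. Of the 118 list genes 110 had a lower log2 fold change than FAM111A, as did 61.4% of all genes tested.

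Most list genes were lower after 24 h of GNF-7. In all, 88 of 118 were called lower and 10 higher (median -0.64, against 0.04 over all genes). Origin licensing genes had 20 lower and 0 higher (median -0.69), with MCM10, a helicase activator named after its values were seen, at -2.54, CDC6 at -1.41 and GINS2 at -1.18. PCNA loading and partner genes had 20 lower and 4 higher (-0.57), with DTL at -2.64, EXO1 at -1.71, FEN1 at -1.56, PCLAF at -1.40 and PCNA at -0.44. Crosslink repair genes had 11 lower and 2 higher (-0.17), with TOP2A at -1.41, FANCI at -1.10 and FANCD2 at -1.07, and SPRTN not called at -0.17 (edgeR adjusted p 0.164). G1/S regulators had 15 lower and 4 higher (-0.43), with E2F8 at -2.45, CCNE2 at -1.63 and E2F1 at -0.84. All 22 G2/M genes were lower (-1.14), with MYBL2 at -2.29, CDK1 at -1.88, MKI67 at -1.68 and UBE2C at -1.50. MKI67 was at 39.1 ± 4.34 CPM in GNF-7 and 125 ± 4.72 CPM in DMSO. CDKN1A fell by 0.26. RFC1 and E2F7 were again higher, by 0.30 and 1.00.

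**Figure D3:**
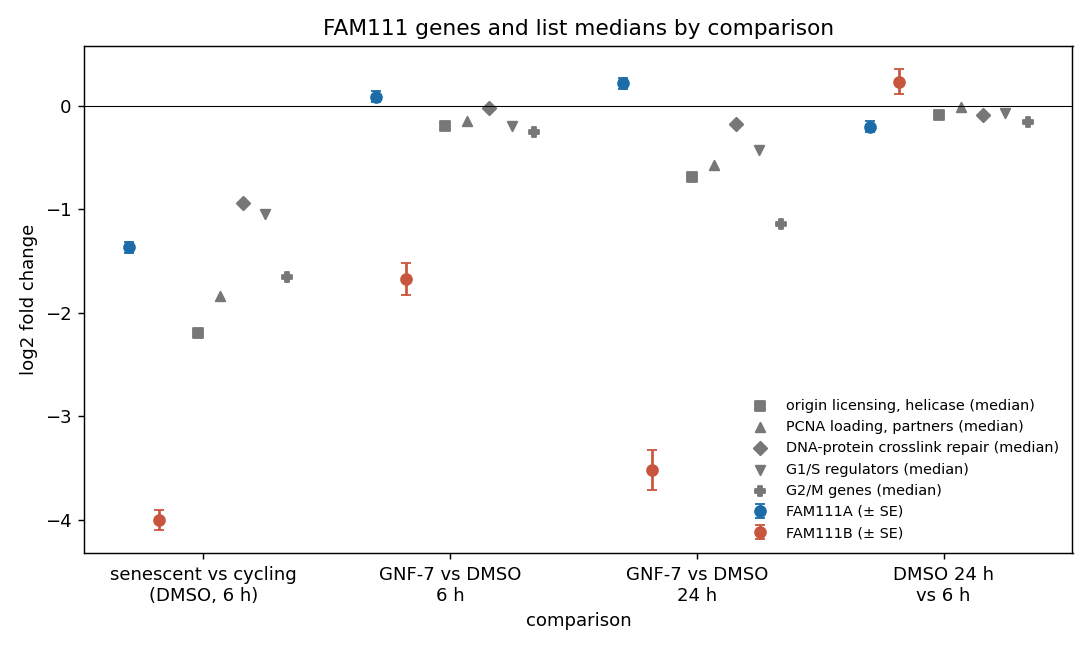
Log2 fold changes of FAM111A (blue) and FAM111B (red) with their SE in 4 comparisons, beside the medians of the 5 gene lists (grey symbols). FAM111B lies below every list median in senescence and in both GNF-7 comparisons, the ones it was chosen on. FAM111A is at -1.37 in senescence and at 0.09 and 0.21 with GNF-7.

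**Figure D4:**
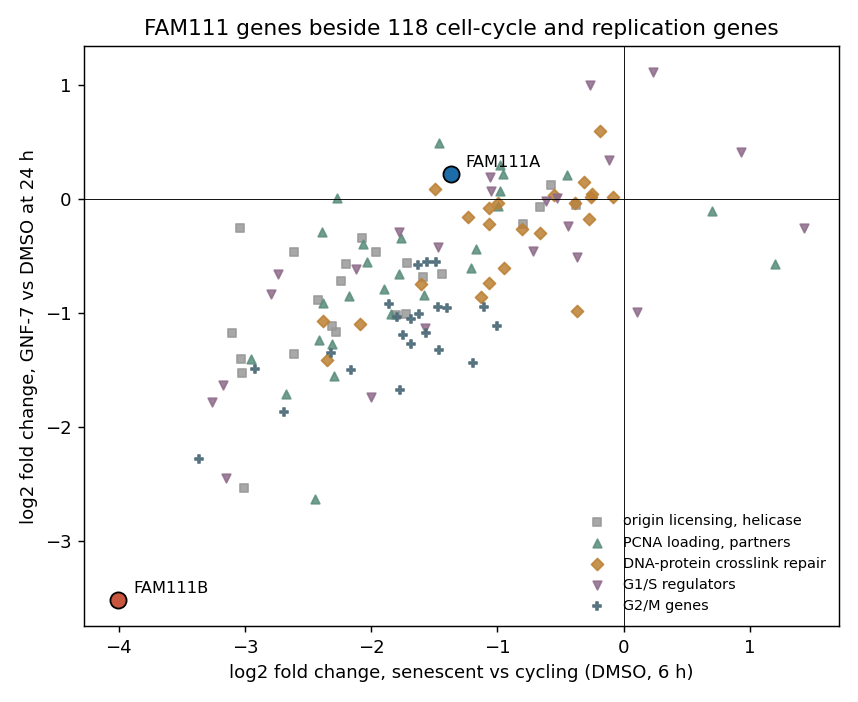
Log2 fold change in senescence (horizontal) against that for GNF-7 at 24 h (vertical) for 118 genes in 5 lists, with FAM111A and FAM111B as large points. The axes share no library; FAM111B lies at -4.00 and -3.52, and FAM111A at -1.37 and 0.21.

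Whether the GNF-7 effect differed between 24 h and 6 h was asked of FAM111A by the interaction term. The difference was 0.13 (SE 0.079, edgeR adjusted p 0.229) and was not called. It was 0.053 without GNF-7 6 h replicate 1, and it was not called with any single library of these groups left out. In this comparison 30.8% of all genes were called, 12.8% with a higher and 18.0% with a lower fold change at 24 h. For FAM111B the difference of the log2 fold changes was -1.85 (SE 0.279). Of the 118 list genes 75 were called with a lower fold change at 24 h and 6 with a higher one (median -0.44); the latter count was 3 without DMSO 6 h replicate 2. Between the GNF-7 groups themselves, 24 h against 6 h, FAM111A was at -0.07 (SE 0.055, edgeR adjusted p 0.273). That value was called with total counts (-0.17) and without GNF-7 6 h replicate 1 (-0.15), in a comparison with 47.8% of all genes called, 23.1% higher and 24.7% lower. With total counts 34.3% of the called genes were higher, against 48.3% with TMM. FAM111B was at -1.61 (SE 0.250) between those groups. This last comparison shares its libraries with the others and adds no independent evidence.

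DMSO libraries at 24 h and 6 h show what changed without GNF-7, and FAM111B was not chosen on this contrast, although its libraries are the controls of the GNF-7 comparisons. FAM111A fell by 0.20 (SE 0.056, edgeR adjusted p 0.00617) and FAM111B was not called, at 0.23 (SE 0.121, edgeR adjusted p 0.194). Of all genes 18.5% were called, 9.26% higher and 9.29% lower. With total counts in place of TMM the called genes were 12.5% higher rather than 49.9% higher, and the median of all genes moved from 0.01 to -0.10. FAM111A kept its sign under that scaling (-0.31), as did FAM111B (0.12). The FAM111B value was 0.10 without DMSO 6 h replicate 2, its lowest library in that group, and was not called when any single library of the DMSO groups at 6 h and 24 h in senescent cells was left out. Of the 118 list genes 25 were called lower and 6 higher (median -0.08). The higher count was 1 with total counts and 3 without DMSO 6 h replicate 3 or DMSO 24 h replicate 1; the lower count was 60 with total counts.

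Neighbouring genes on chromosome 11 were also followed, and DTX4 shared some directions with FAM111A. FAM111A-DT, which starts next to FAM111A on the opposite strand, was at 2.96 ± 0.338 CPM in cycling cells and 3.59 ± 0.219 CPM in senescent DMSO cells at 6 h. It was not called in senescence (0.28, edgeR adjusted p 0.164), except with total counts (0.41). With GNF-7 at 24 h it was at 0.34 (edgeR adjusted p 0.0821) and was called only without GNF-7 24 h replicate 1 (0.53). DTX4, the next gene after FAM111A and a ubiquitin ligase of the Deltex family, rose with GNF-7 from 2.99 ± 0.704 to 6.93 ± 0.903 CPM at 6 h. Its log2 fold change was 1.22 at 6 h (SE 0.162, edgeR adjusted p 5.20e-09) and 1.56 at 24 h (SE 0.175, edgeR adjusted p 1.06e-11), and it was not called in senescence (0.15, edgeR adjusted p 0.468). Between the DMSO groups, 24 h against 6 h, DTX4 fell by 0.56 (SE 0.188, edgeR adjusted p 0.0266), where 18.5% of all genes were called. FAM111A also fell there (-0.20) and was also higher with GNF-7 at 24 h (0.21). The remaining neighbours, GLYATL1B, AP001636.3, GLYATL1P4, MPEG1 and RN7SL42P, were at 0 counts in every library, and the pseudogene AP001258.1 reached at most 3.

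Genes with the pattern most like each member were sought by Pearson's r of log2 CPM over the 15 libraries, among 11216 other genes with a symbol and a mean of at least 5 CPM. The libraries form 5 groups, so high values are common: 228 genes had r above 0.98 with FAM111B and 29 with FAM111A. Between FAM111A and FAM111B r was 0.793. For FAM111B the 8 highest were UQCRFS1, ZNF367, FEN1, UBE2N, TUBA1B, UHRF1, ICMT and CYCS, with r from 0.992 to 0.995. Pearson's r ignores the size of the change, and UQCRFS1, a respiratory chain subunit, spanned only 1.05 on the log2 scale. ZNF367 spanned 5.12 and UHRF1, which reads hemimethylated DNA behind the fork, 5.31, the widest of the 8. UHRF1 was at -2.74 in senescence, -1.07 with GNF-7 at 6 h and -2.23 at 24 h, and ZNF367 at -2.81, -1.13 and -2.36.

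For FAM111A the 8 highest were EZH2, LIG1, RIMKLB, PDS5A, PM20D2, ANKRD27, SART3 and AFDN, with r from 0.985 to 0.996. EZH2, the histone methyltransferase of Polycomb complex PRC2, went from 101 ± 2.55 CPM in cycling cells to 23.2 ± 1.16 CPM in senescent DMSO cells at 6 h. It was 0.26 higher on the log2 scale with GNF-7 at 6 h (edgeR adjusted p 7.44e-04) and 0.21 higher at 24 h (edgeR adjusted p 0.00564). LIG1, the ligase that seals Okazaki fragments, was at -0.98 in senescence and was not called with GNF-7 at 6 h (0.09) or 24 h (0.07), although it was called at both times under the 5 CPM filter (0.15 and 0.17) and at 6 h without GNF-7 6 h replicate 1 (0.15). RIMKLB, PDS5A, PM20D2, ANKRD27, SART3 and AFDN were each called lower in senescence, by 0.59 to 1.94 on the log2 scale. The choice of measure matters: with Spearman's rho 1 of the 8 genes for FAM111A and 0 of the 8 for FAM111B were among the top 8, and with r over the 5 group means 2 of 8 were, for each.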

How the data were processed

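Per the file headers, the deposited values are unnormalized read counts for each Ensembl gene, in 1 table with a column per library. Per the submitters' processing notes, bcl2fastq 2.20.0.422, STAR 2.7.9a and featureCounts 1.5.1 were used with GRCh38; the annotation release and strand setting are not given in the sources used here. Of 60673 rows, 3 lines of 1 broken entry were left out. Libraries were made with an Illumina stranded mRNA kit, per the labels' protocols.

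Counts were tested with edgeR 4.0.16 (quasi-likelihood, robust) in R 4.3.3 after filterByExpr (18563 genes) and TMM scaling, over all 15 libraries with a term per group and no replicate block. P-values were adjusted by Benjamini-Hochberg over all genes tested, with calls under 0.05. The SE is the log2 fold change divided by the square root of F. DESeq2 1.42.0 and limma 3.58.1 (voom) were alternatives. On simulated counts for the senescence comparison (17936 genes, 200 changed 2-fold) edgeR recovered 189 with 9 false calls. The simulation used a single mean profile with no shift in composition, whereas 70.0% of genes were called in the data. Its recovery may therefore not hold for the real comparison. Libraries of a group differed by more than sampling noise (chi-square per degree of freedom 3.02 to 12.7).

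The members and lists were chosen with earlier results of these data known. Named genes were the members, the 8 genes most like each, the 3 largest changes per list in senescence (called, mean of at least 5 CPM), a fixed set (TERF2, PCNA, SPRTN, E2F1, CCNE2, CDKN1A, MKI67 and a gene not reported here) and the 3 nearest neighbours on each side. POLD4, POLH, RFC1, E2F7 and MCM10 fall outside that rule. Genes overlapping another gene on the same strand (PCLAF, DTL, FANCD2, TOP2A, TERF2, PCNA, RFC1, RIMKLB, PDS5A, ANKRD27, FEN1 and UHRF1) or only on the other strand (GINS2, FANCI, CCNE2, E2F8, SPRTN, CDKN1A, EZH2, LIG1, SART3, UQCRFS1, ZNF367, UBE2N, TUBA1B and ICMT) have values that are uncertain to that extent. The same holds for FAM111A-DT, which overlaps AP001258.1 on its strand and FAM111A on the other, and for DTX4, which overlaps MPEG1. Replicates are called biological in the titles, and nothing further says whether they were separate cultures, so p-values measure only the spread between these libraries, which may be technical.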

Additional observations from a re-analysis of the deposited data

Results flagged for a closer look

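Each gene listed here had a GNF-7 effect that differed between 24 h and 6 h by the interaction test (edgeR adjusted p under 0.05), which 30.8% of all genes did. The values are differences of log2 fold changes, 24 h minus 6 h. In the replication lists they were -0.66 for GINS2, -0.75 for MCM6, -0.91 for CDC6, -1.78 for MCM10, -1.10 for PCLAF, -1.32 for EXO1, -2.05 for DTL, -0.29 for PCNA and -0.63 for FEN1. Crosslink repair genes had -0.94 for FANCD2, -1.22 for TOP2A and -0.96 for FANCI. Among regulators the value was -0.78 for CCNE2, -1.94 for E2F8, -0.42 for E2F1 and -0.31 for CDKN1A, and 0.28 for E2F7. The E2F1 call was lost on leaving out GNF-7 6 h replicate 3 (-0.37), DMSO 24 h replicate 1 (-0.35), or either replicate 1 (-0.32) or 3 (-0.38) of GNF-7 at 24 h. G2/M genes had -1.99 for MYBL2, -0.94 for UBE2C, -1.45 for CDK1 and -1.30 for MKI67. TERF2 had -0.36. Of the genes most like FAM111B, UQCRFS1 had -0.26, ZNF367 -1.23, UBE2N -0.32, TUBA1B -0.81, UHRF1 -1.16, ICMT -0.34 and CYCS -0.31. Of those most like FAM111A, PDS5A had 0.19. MCM6 was called higher at 6 h (0.49) and lower at 24 h (-0.26).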

How the results depend on the processing

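Across RLE factors, total counts, mitochondrial genes left out, both filters, DESeq2, voom, a fit limited to the compared groups, a replicate block and leaving out each library, both members kept their direction in all 6 comparisons. In senescence FAM111A ranged from -1.39 to -1.22 and FAM111B from -4.09 to -3.85. With GNF-7 at 6 h FAM111A ranged from 0.030 to 0.16 and FAM111B from -1.85 to -1.50, and at 24 h from 0.19 to 0.32 and from -3.57 to -3.42. FAM111A was called at 6 h under the 5 CPM filter (0.14), and between the GNF-7 groups with total counts (-0.17). Without GNF-7 6 h replicate 1 it was called in both (0.16 and -0.15); leaving out single libraries gave -0.15 to -0.020 for the latter. The list genes called lower between the DMSO groups went from 25 to 60 with total counts, and to 16, 15 and 15 without DMSO 6 h replicate 2, DMSO 6 h replicate 3 or DMSO 24 h replicate 3. A prior count of 0.5 moved the log2 ratio after 24 h of GNF-7 from -6.40 to -6.55.

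The replicate numbers are shared between groups, but same-numbered libraries did not deviate together (correlations from -0.037 to 0.058 over 30 pairs), so they were not treated as pairs. With the replicate block FAM111A was at -1.37, 0.08 and 0.21 in the first 3 comparisons, and the block changed no call of a member.

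Of 2469 recomputed values of other named genes, 2418 kept direction and call, 16 lost a call, 19 gained one and 16 changed sign, all of the last near zero. RIMKLB with GNF-7 at 6 h was 0.0016 with RLE factors and with DESeq2, 0.0053 with total counts, 0.046 with the 5 CPM filter and 0.0051 with only the groups compared (-0.028 to 0.041 without single libraries). PM20D2 at 6 h was 0.0020, 0.042 and 0.0017 under the last 3 of these and -0.058 to 0.048 without single libraries; at 24 h the latter gave -0.011 to 0.094. PDS5A at 6 h was -0.0084 without a filter and -0.0043 to 0.026 without single libraries. DTX4 in senescence was -0.037 to 0.31 without single libraries, below 0 without DMSO 6 h replicate 3. Total counts moved the median of all genes in senescence from 0.06 to 0.19. Depth limits FAM111B most after 24 h of GNF-7, with 12 to 14 counts per library.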
